A study of Mus musculus with 24 samples.

Results

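Of the 1531 mature mouse microRNAs (miRNAs) counted in these libraries, 6 from 4 families that are best known from synapses are described here. Their reads are given by brain region and by neonatal hypoxic-ischemic brain injury (HIBI). Other arms of their hairpins, miR-137-5p and miR-218-1-3p, were also counted and are given beside them. The arms miR-153-5p and miR-218-2-3p had no entry in the counts. The 6 were chosen by name: mmu-miR-138-5p, mmu-miR-138-1-3p, mmu-miR-138-2-3p, mmu-miR-137-3p, mmu-miR-153-3p and mmu-miR-218-5p. A miRNA is a short RNA that pairs through its seed, the bases near its 5′ end, with messenger RNAs and lowers their translation and stability.

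miR-138 is enriched in brain, reaches dendrites and restrains the growth of dendritic spines. miR-137 acts in neuronal maturation and in release of synaptic vesicles, and its locus is linked to schizophrenia. miR-153 represses proteins of the vesicle release machinery, and miR-218 acts on neuronal excitability and is abundant in motor neurons.

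CD1 mouse pups of both sexes were randomized at postnatal day 9. In the HIBI group the right common carotid artery was cauterized under isoflurane with bupivacaine, and after 2 h with the dam the pups breathed 8% oxygen for 30 min. In sham pups the neck was opened under the same drugs and the artery spared, and they were later held warm in room air, away from the dam, while the others were hypoxic. Tissue was taken 30 min after hypoxia or normoxia from right cerebellum, right striatum/thalamus and right cortex, so the values describe a very early time. Carotid ligation on one side limits blood flow to the forebrain on that side, while the cerebellum meets the low oxygen without the ligation, and no group had hypoxia alone. HIBI pups carry the numbers 1, 4, 5 and 7 and sham pups 2, 3, 6 and 8, and each of the 8 pups gave all 3 regions, for 24 libraries made from 200 ng RNA each and sequenced on an Illumina NextSeq. Pups are separate animals, and nothing in the sources used here names their litters.

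Libraries held between 1254185 and 3406624 reads on mouse miRNAs. Levels are CPM, read counts scaled to library size with trimmed-mean (TMM) factors, and 10 CPM on this scale stood for 14.1 to 33.1 reads, depending on the library. The 6 miRNAs took 38385 reads, 0.0711% of all. miR-218-5p held 20779 of them and miR-138-5p 10744, followed by miR-138-2-3p with 3613, miR-137-3p with 2284, miR-138-1-3p with 921 and miR-153-3p with 44. Ligation and amplification favour some small RNAs over others, so each miRNA is compared with itself across samples. 5 of the 6 averaged above 10 CPM in every comparison and were tested, and miR-153-3p did not.

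The regional labels were checked against miRNAs of the hindbrain Hox clusters (miR-10a-5p, miR-10b-5p, miR-196a-5p and miR-196b-5p). Their summed level in sham pups was 1013 ± 557 CPM in cerebellum, 192 ± 62.8 in striatum/thalamus and 69.5 ± 31.8 in cortex (SD, n = 4 each). In every one of the 4 sham pups the cerebellum was the highest of the 3 regions.

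Mature sequences from RefSeq (GRCm38.p6) are given because the 3 miR-138 products behave differently and can be told apart only by sequence. Each reads 5′ to 3′ with the seed, bases 2 to 8, in capitals.
mmu-miR-138-5p: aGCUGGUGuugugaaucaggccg
mmu-miR-138-1-3p: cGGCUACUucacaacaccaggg
mmu-miR-138-2-3p: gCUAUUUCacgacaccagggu
mmu-miR-137-3p: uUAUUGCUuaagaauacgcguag
mmu-miR-153-3p: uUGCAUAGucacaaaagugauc
mmu-miR-218-5p: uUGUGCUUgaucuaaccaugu
No 2 of these 6 share a seed. Among the 1679 RefSeq mature miRNAs compared, 1 other had the seed of one of them: miR-7002-3p, which has that of miR-218-5p and took 2 reads in all 24 libraries.

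miR-138-5p is cut identically from 2 hairpins, so its reads cannot be assigned to either, while the opposite arms name their own hairpin. Mir138-1 lies at chr9:122682876-122682974 in an exon of the pseudogene Gm47135, and Mir138-2 at chr8:94324311-94324381 in an exon of the long noncoding RNA C78859, both on the plus strand (GENCODE M21 annotation). The hairpins are shown with their mature arms in capitals.
Mir138-1: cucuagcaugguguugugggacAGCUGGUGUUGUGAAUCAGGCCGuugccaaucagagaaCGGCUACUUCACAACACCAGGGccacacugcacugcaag
Mir138-2: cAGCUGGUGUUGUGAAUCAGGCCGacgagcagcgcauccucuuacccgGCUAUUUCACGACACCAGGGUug
The 3p arms are 22 and 21 bases long, share a run of 9 bases and differ by 5 single-base edits, and their seeds differ. Mir137 is in an exon of the noncoding transcript Gm26871 at chr3:118433857-118433929. Mir153 lies in an intron of Ptprn2 at chr12:117250817-117250885. miR-218-5p also has 2 sources, in an intron of Slit2 (chr5:48223942-48224051) and in an intron of Slit3 (chr11:35616816-35616925). All these hairpins are on the strand of the named gene.

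Regional levels in sham pups are described first. miR-137-3p showed the widest regional range of the tested members. In cortex the 4 sham pups (2, 3, 6 and 8) had 65.2, 66.1, 105 and 79.1 CPM. In striatum/thalamus the same pups had 31.1, 22.2, 8.59 and 20.3 CPM. In cerebellum they had 1.74, 1.07, 15.3 and 3.92 CPM, from 4, 2, 33 and 10 reads. Every cortical value lay above every value of the other regions, whereas pup 6 was lowest in striatum/thalamus and highest in cerebellum, so those regions overlapped through that animal. Means were 79.0 ± 18.8, 20.5 ± 9.25 and 5.51 ± 6.64 CPM (SD, n = 4) in cortex, striatum/thalamus and cerebellum. The cerebellar mean was below the minimum of 10 CPM, so miR-137-3p passed the filter only through the regions in which it was higher. By edgeR's quasi-likelihood test over 423 miRNAs, cortex exceeded cerebellum by 3.77 on the log2 scale (SE 0.608, adjusted p = 9.5e-05), a 13.7-fold difference that ran from 3.52 to 4.99 on the log2 scale over the alternatives and was 4.99 without sham pup 6. Cortex exceeded striatum/thalamus by 1.82 (SE 0.543, edgeR adjusted p = 0.0150), and striatum/thalamus exceeded cerebellum by 1.95 (SE 0.600, edgeR adjusted p = 0.00975). The last call was lost in edgeR without sham pup 2, 3 or 8 (adjusted p = 0.0847, 0.0559 and 0.0514), and without sham pup 6 that difference was 3.44. The difference of cortex from striatum/thalamus was lost without pup 8 (edgeR adjusted p = 0.0579). Each of these regional calls of miR-137-3p held with a 1 CPM filter and with no filter.

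The other arm of the same hairpin, miR-137-5p, was high in both forebrain regions. Sham levels were 75.8 ± 15.5 CPM in cortex, 56.3 ± 4.45 in striatum/thalamus and 10.5 ± 8.46 in cerebellum (SD, n = 4). Cortex exceeded cerebellum by 2.79 on the log2 scale (SE 0.449, edgeR adjusted p = 9.3e-05), and striatum/thalamus exceeded cerebellum by 2.47 (SE 0.447, edgeR adjusted p = 0.000189). Cortex and striatum/thalamus differed by 0.33 (SE 0.406, edgeR adjusted p = 0.564). Reads of miR-137-3p per read of miR-137-5p had a median of 1.00 in cortex, 0.363 in striatum/thalamus and 0.432 in cerebellum of the 4 sham pups, and of 1.09, 0.564 and 1.26 in the 4 HIBI pups. The ratio was higher in cortex than in striatum/thalamus in 7 of 8 pups, the exception being an HIBI pup. A ratio of 2 arms of one precursor within one library does not depend on scaling. These ratios were added after the data were seen and are given as a description.

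miR-138-5p was most abundant in cortex. Cortical sham values were 395, 286, 256 and 291 CPM in pups 2, 3, 6 and 8. Striatum/thalamus gave 115, 199, 167 and 108 CPM, and cerebellum 104, 94.5, 151 and 139 CPM. The cortical values stood clear of the others, and striatum/thalamus and cerebellum overlapped. Cortex exceeded cerebellum by 1.30 on the log2 scale (SE 0.240, edgeR adjusted p = 0.000313), and it exceeded striatum/thalamus by 0.97 (SE 0.238, edgeR adjusted p = 0.00498). Striatum/thalamus and cerebellum differed by 0.32 (SE 0.238, edgeR adjusted p = 0.236).

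miR-138-2-3p, which reports the Mir138-2 hairpin, peaked elsewhere. In striatum/thalamus its sham values were 101, 108, 114 and 84.1 CPM. In cortex they were 65.2, 60.0, 88.8 and 66.1 CPM, and in cerebellum 40.4, 35.4, 36.6 and 45.9 CPM. Cerebellum was below both forebrain regions in each sham pup, and the forebrain regions overlapped only through cortex of pup 6 and striatum/thalamus of pup 8. Striatum/thalamus exceeded cerebellum by 1.42 on the log2 scale (SE 0.206, edgeR adjusted p = 2.62e-05), and cortex exceeded it by 0.78 (SE 0.204, edgeR adjusted p = 0.00411). Cortex was below striatum/thalamus by a log2 difference of -0.64 (SE 0.200, edgeR adjusted p = 0.0201). The difference ran from -0.65 to -0.36 over 11 alternatives and the call was lost under 9 of them, among them the fits without sham pup 2, 3, 6 or 8 (edgeR adjusted p = 0.104, 0.141, 0.0599 and 0.0807).

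miR-138-1-3p, from the Mir138-1 hairpin, was low everywhere. Its sham means were 19.3 ± 2.35 CPM in striatum/thalamus, 17.2 ± 7.14 in cortex and 14.9 ± 3.52 in cerebellum (SD, n = 4), with 16 to 80 reads per library over all 24. Neighbouring levels differed by less than their spread, and none of the 3 differences was called in edgeR (adjusted p = 0.246, 0.564 and 0.667).

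Set against both 3p arms, the 5p arm of miR-138 was scarcest in striatum/thalamus. Reads of miR-138-5p per read of the summed 3p arms had a median of 3.55 in cortex, 2.03 in cerebellum and 1.14 in striatum/thalamus of sham pups, and of 3.13, 3.402 and 1.37 in HIBI pups. The ratio was lower in striatum/thalamus than in cerebellum in 8 of 8 pups, by a mean log2 difference of -1.13 ± 0.593 (SD). It was higher in cortex than in striatum/thalamus in 8 of 8 pups, by 1.36 ± 0.592. This ratio, too, was added after the data were seen. Of the 3p reads, miR-138-2-3p made up 84.0% ± 2.29 in sham striatum/thalamus, 80.5% ± 7.17 in cortex and 72.9% ± 3.56 in cerebellum (SD, n = 4).

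**Figure D1:**
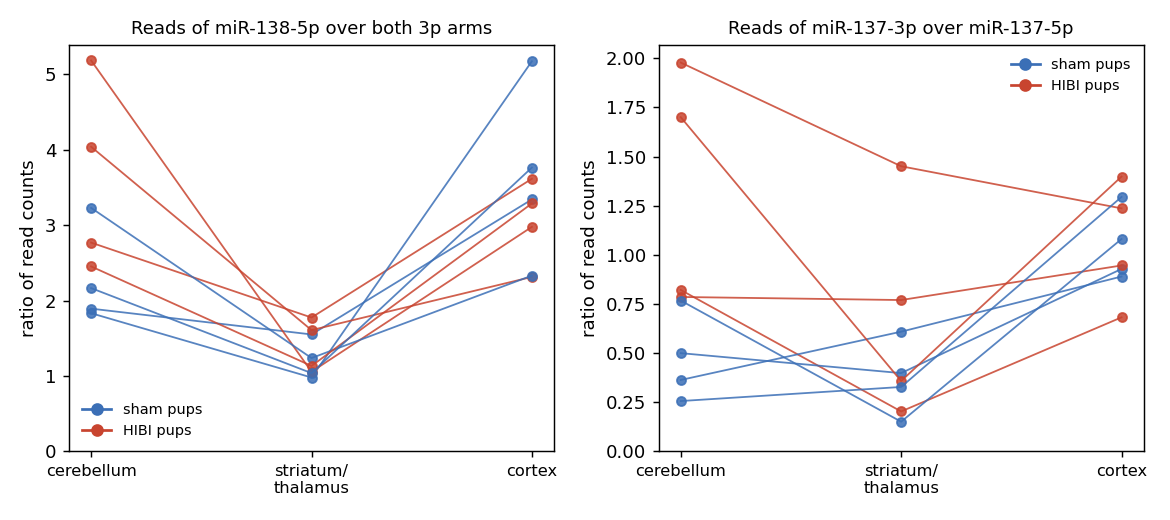
Read count ratios of miR-138-5p to the summed miR-138-1-3p and miR-138-2-3p (left) and of miR-137-3p to miR-137-5p (right) on linear axes, with one line per pup joining its 3 regions and sham and HIBI pups in different colours. Both ratios were added after the data were seen. The left ratio falls to a median of 1.19 over 8 pups in striatum/thalamus and is lower there than in both other regions in 8 of 8 pups.

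miR-218-5p was lowest where miR-138-2-3p was highest. Sham values in pups 2, 3, 6 and 8 were 363, 327, 436 and 590 CPM in cerebellum. In cortex they were 344, 492, 638 and 398 CPM, and in striatum/thalamus 187, 201, 250 and 148 CPM. Striatum/thalamus was lowest, apart from every value of the other regions, and cerebellum and cortex overlapped. Striatum/thalamus was below cerebellum by a log2 difference of -1.06 (SE 0.225, edgeR adjusted p = 0.000716), and cortex exceeded striatum/thalamus by 1.15 (SE 0.225, edgeR adjusted p = 0.00123). Cortex and cerebellum differed by 0.09 (SE 0.221, edgeR adjusted p = 0.766). Its passenger arm miR-218-1-3p was rare, with 2 to 39 reads per library.

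miR-153-3p was near the limit of these libraries. It had 0 reads in 13 of 24 libraries, and a count of 0 allows up to 0.906 to 2.13 CPM, depending on the library (3 counts, counting error only). In sham cortex it had 0 reads in each pup, and in sham cerebellum 0, 0, 0 and 2 reads. The highest count, 12 reads or 5.02 CPM, came from striatum/thalamus of sham pup 3. It was below the filter of the regional tests. In the edgeR fit with no filter, the smallest of its adjusted p values between regions was 0.103, for sham cortex against striatum/thalamus, and no fold is given against a region at 0.

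In sham pups 3 of 5 tested members were called between striatum/thalamus and cerebellum, where 62.6% of 423 miRNAs were called (fold above 1.5 and edgeR adjusted p under 0.05). Between cortex and cerebellum 3 of 5 were called, against 60.5%, and between cortex and striatum/thalamus 4 of 5, against 36.6%. Among those 4, the call of miR-138-2-3p held under only 2 of 11 alternatives. Regional differences were thus common among all miRNAs, and the share of members called in the comparisons with cerebellum was near that of the background. In a tissue piece, fewer cells that make a miRNA and less of it per cell cannot be told apart.

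**Figure D2:**
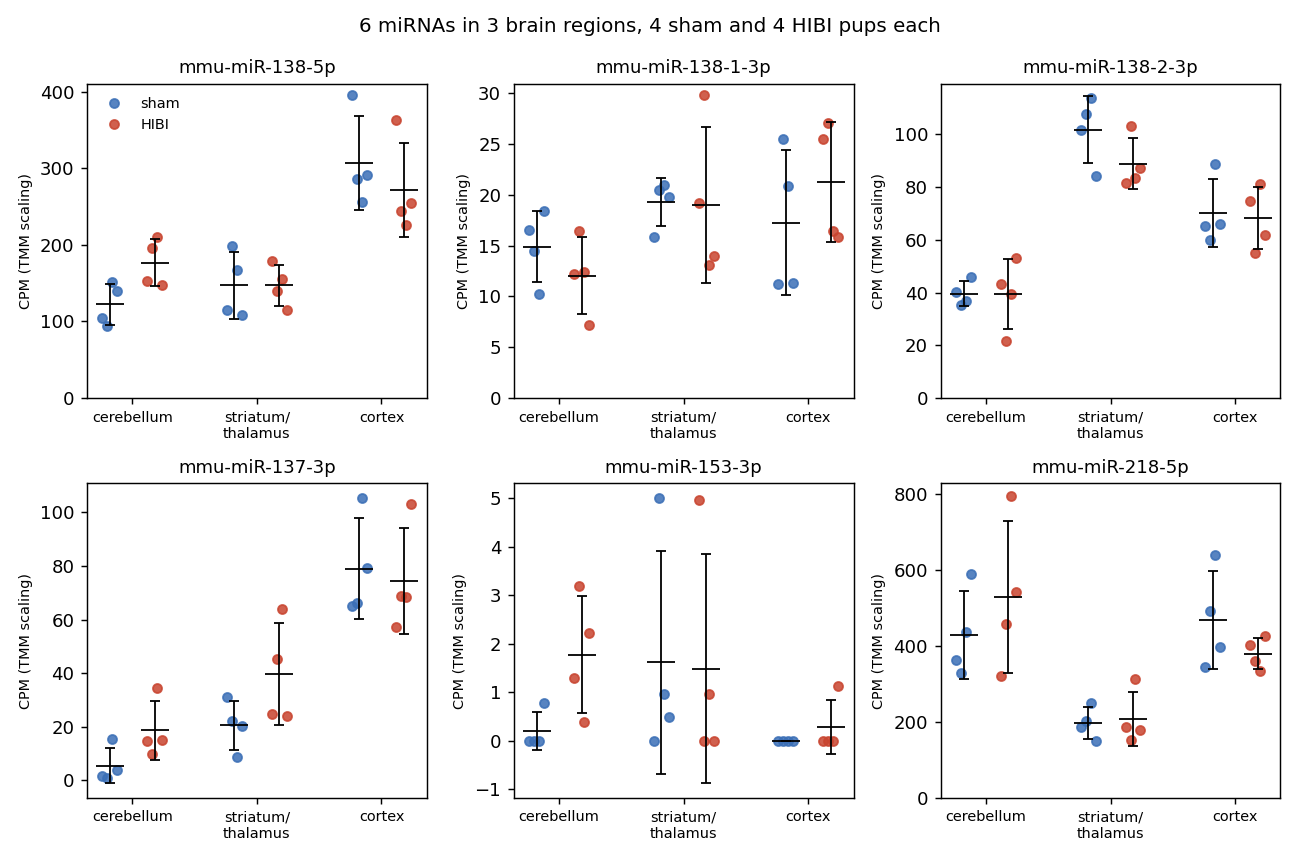
CPM of each of the 6 miRNAs (linear vertical axes, 1 panel per miRNA) in cerebellum, striatum/thalamus and cortex, with one point per library for 4 sham and 4 HIBI pups and black bars for mean and SD. miR-137-3p and miR-138-5p are highest in cortex, miR-138-2-3p in striatum/thalamus, and miR-218-5p is lowest in striatum/thalamus.

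The same regions were compared in HIBI pups. miR-218-5p was again lowest in striatum/thalamus, with 187, 152, 313 and 178 CPM in pups 1, 4, 5 and 7. Its cerebellar values were 320, 459, 795 and 542 CPM and its cortical values 401, 360, 333 and 425 CPM. All 8 of those lay above the striatum/thalamus values, with the lowest, cerebellum of pup 1, close to the highest, striatum/thalamus of pup 5. Striatum/thalamus was below cerebellum by a log2 difference of -1.45 (SE 0.295, edgeR adjusted p = 0.00105). Cortex exceeded striatum/thalamus by 0.89 (SE 0.292, edgeR adjusted p = 0.0361), a call lost without HIBI pup 1, 4 or 7 (edgeR adjusted p = 0.0503, 0.161 and 0.194) and with a 1 CPM filter (edgeR adjusted p = 0.0547). Cortex and cerebellum differed by -0.55 (SE 0.290, edgeR adjusted p = 0.159).

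miR-137-3p in HIBI pups had 57.1, 68.9, 68.5 and 103 CPM in cortex. Striatum/thalamus had 24.9, 45.4, 64.1 and 24.1 CPM, and cerebellum 14.8, 10.04, 34.5 and 15.2 CPM. Cortex was clear of cerebellum, and striatum/thalamus overlapped both through pup 5. Cortex exceeded cerebellum by 1.91 on the log2 scale (SE 0.433, edgeR adjusted p = 0.00391), and by 2.52 without HIBI pup 5. The steps of 0.98 from cerebellum to striatum/thalamus (SE 0.429, edgeR adjusted p = 0.0730) and of 0.93 from there to cortex (SE 0.419, edgeR adjusted p = 0.105) missed the threshold. With the pup as a replicate block both passed, at 1.00 (edgeR adjusted p = 0.0304) and 1.04 (edgeR adjusted p = 0.0307), and both also passed without HIBI pup 5 (edgeR adjusted p = 0.0313 and 0.0312). The first also passed in DESeq2 (1.05, adjusted p = 0.0326).

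Within the miR-138 family, HIBI levels of miR-138-5p were 272 ± 61.4 CPM in cortex, 147 ± 26.9 in striatum/thalamus and 177 ± 30.9 in cerebellum (SD, n = 4). Cortex exceeded striatum/thalamus by 0.92 (SE 0.219, edgeR adjusted p = 0.0100), a call lost without HIBI pup 4 or 7 (edgeR adjusted p = 0.0597 and 0.0947). Against cerebellum the cortical difference was 0.55 (SE 0.218, edgeR adjusted p = 0.0688), and it was called with DESeq2 or its size factors, with upper quartile scaling and without HIBI pup 5. Striatum/thalamus and cerebellum differed by -0.37 (SE 0.218, edgeR adjusted p = 0.180). miR-138-2-3p again had its highest level in striatum/thalamus, 88.9 ± 9.68 CPM against 68.2 ± 11.9 in cortex and 39.3 ± 13.2 in cerebellum. Striatum/thalamus exceeded cerebellum by 1.06 (SE 0.298, edgeR adjusted p = 0.00867), a call lost without HIBI pup 4 (edgeR adjusted p = 0.0542). Cortex against striatum/thalamus, at -0.35 (SE 0.293, edgeR adjusted p = 0.401), and against cerebellum, at 0.71 (SE 0.296, edgeR adjusted p = 0.0824), was not called, though the latter was in DESeq2. miR-138-1-3p was not called between any of the regions (edgeR adjusted p = 0.239, 0.136 and 0.695).

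Of 5 tested members in HIBI pups, 2 were called between striatum/thalamus and cerebellum (49.1% of 446 miRNAs), 1 between cortex and cerebellum (29.6%) and 2 between cortex and striatum/thalamus (28%). Of the 15 regional calls of members in sham or HIBI pups, 9 held under each alternative run. They are those of miR-218-5p between striatum/thalamus and cerebellum and of miR-137-3p between cortex and cerebellum in both kinds of pup, and in sham pups those of miR-138-5p between cortex and either region, of miR-138-2-3p between cerebellum and either region, and of miR-218-5p between cortex and striatum/thalamus.

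HIBI was then compared with sham within each region, by the study's rule of a fold above 1.5 with an unadjusted edgeR p under 0.05. In cerebellum 1 of 5 tested members was called, miR-137-3p, where the rule called 7.83% of 434 miRNAs. Sham pups 2, 3, 6 and 8 had 1.74, 1.07, 15.3 and 3.92 CPM of it, and HIBI pups 1, 4, 5 and 7 had 14.8, 10.04, 34.5 and 15.2 CPM, from 23, 22, 89 and 34 reads. Sham pups averaged 5.51 CPM and HIBI pups 18.6, so it passed the minimum of 10 CPM only through the group in which it was higher. It was also called with a 1 CPM filter, which both groups pass, and with no filter (1.77 and 1.73). Sham pups 2, 3 and 8 lay below every HIBI pup, and sham pup 6 lay above 3 of them, so the groups overlapped. The log2 difference was 1.77 (SE 0.702, edgeR adjusted p = 0.432), or 3.41-fold. An exact permutation test on log2(CPM + 1) gave p = 0.114 (two-sided, 70 arrangements, smallest possible p 0.0286). The edgeR call was lost without sham pup 2, 3 or 8 or without HIBI pup 5 (log2 differences 1.45, 1.44, 1.58 and 1.28), and without sham pup 6 the difference was 3.00.

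Marker miRNAs of other cells were read in the same cerebellar libraries. Of 21 tested the rule called 2, beside 7.83% of all 434 miRNAs, with no edgeR adjusted p under 0.05. The erythrocyte miRNAs (3 of 3 measured, miR-486a-5p the most abundant, none at 0 in a group) summed to 1282, 1155, 735 and 1325 CPM in sham pups 2, 3, 6 and 8 and to 658, 787, 579 and 725 CPM in HIBI pups 1, 4, 5 and 7, so that sham pup 6 lay below HIBI pup 4. miR-486a-5p was lower in HIBI pups by a log2 difference of -0.86 (SE 0.272, edgeR adjusted p = 0.432) and was called, and miR-451a, at -0.23, was not. Sham pup 6, the highest sham library for miR-137-3p, was the lowest sham library for these. miRNAs of choroid plexus and ciliated cells (6 of 6 measured, miR-204-5p the most abundant, none at 0 in a group) summed to 12108, 5439, 2693 and 5525 CPM in sham and to 3942, 3218, 3161 and 4833 CPM in HIBI pups, with overlap, and none of the 5 tested was called. Muscle miRNAs (3 of 3, miR-206-3p the most abundant) summed to 601, 447, 535 and 494 CPM in sham and to 345, 473, 651 and 454 CPM in HIBI pups, also with overlap. Of these miR-1a-3p was called higher in HIBI pups, at 184 ± 133 CPM against 90.3 ± 42.8 (SD, n = 4), a log2 difference of 1.05 (SE 0.481, edgeR adjusted p = 0.432). That call held under 10 of 16 alternatives. It was lost with upper quartile scaling, with limma-voom and without sham pup 2 or 3 or HIBI pup 5 or 7, with a difference of 0.44 without HIBI pup 5. miR-206-3p differed by -0.53 (SE 0.205), short of the fold. Neuronal miRNAs (3 of 3, miR-9-5p the most abundant, none at 0) summed to 150989 ± 29362 CPM in sham and 155018 ± 35442 in HIBI cerebellum (SD, n = 4). Myeloid miRNAs summed to 491, 397, 647 and 716 CPM in sham pups 2, 3, 6 and 8 and to 514, 696, 970 and 813 CPM in HIBI pups 1, 4, 5 and 7. Endothelial miRNAs summed to 2112, 2251, 3398 and 4040 CPM in sham and to 2481, 3134, 4830 and 4313 CPM in HIBI pups. Both sums overlapped between the groups. They were lowest in sham pups 2 and 3 and highest in HIBI pup 5, as was miR-137-3p. The myeloid sum was mostly miR-146a-5p, at 464 ± 132 CPM in sham and 654 ± 185 in HIBI pups (SD, n = 4). miR-223-3p was at 29.9 ± 11.7 and 40.3 ± 8.71 CPM. miR-155-5p went the other way, at 69.0 ± 18.8 and 52.7 ± 16.3 CPM. Both arms of miR-142a averaged below 1 CPM and were not tested. The part of these markers in the miR-137-3p difference was not tested.

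miR-137-5p in the same cerebellar libraries had 4.77, 2.15, 19.9 and 15.3 CPM in sham and 18, 12.8, 17.4 and 8.93 CPM in HIBI pups. The groups overlapped in part, with sham pups 2 and 3 below every HIBI pup and sham pup 6 the highest of all 8. The log2 difference was 0.46 (SE 0.570, edgeR adjusted p = 0.686). Reads of miR-137-3p per read of miR-137-5p ranged from 0.256 to 0.767 in sham and from 0.786 to 1.98 in HIBI cerebellum, without overlap, on as few as 2 reads. This ratio was chosen after its values were seen and was not tested.

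miR-138-5p in cerebellum had 104, 94.5, 151 and 139 CPM in sham pups and 153, 196, 210 and 148 CPM in HIBI pups. The groups overlapped by a single pair, sham pup 6 above HIBI pup 7. The log2 difference of 0.55 (SE 0.239, edgeR adjusted p = 0.432) was 1.47-fold, short of the fold the rule asks for. The exact permutation test gave p = 0.0571. When libraries were scaled by their totals alone, the difference was 0.70 and the miRNA was called, while the median over all 434 miRNAs moved from 0.11 to 0.27. It was also called without HIBI pup 1 or 7 or sham pup 6 (0.59, 0.63 and 0.65).

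The other members of the tested set did not pass in cerebellum. miR-218-5p had a mean of 429 ± 116 CPM in sham and 529 ± 200 in HIBI pups (SD, n = 4), a log2 difference of 0.33 (SE 0.280, edgeR adjusted p = 0.560). miR-138-2-3p was at 39.6 ± 4.70 and 39.3 ± 13.2 CPM, and miR-138-1-3p at 14.9 ± 3.52 and 12.05 ± 3.80 CPM. No miRNA of 434 had an edgeR adjusted p under 0.05 in cerebellum (0%), 44 had an unadjusted p under 0.05, and the smallest adjusted p was 0.432. DESeq2, limma-voom and the edgeR exact test also gave 0, and the edgeR fit with no filter gave 6.

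miR-153-3p had 0, 0, 0 and 2 reads in sham cerebellum and 2, 7, 1 and 5 reads in HIBI cerebellum. Reads were present in 4 of 4 HIBI pups and 1 of 4 sham pups, and the CPM values overlapped, 0.784 in sham pup 8 against 0.388 in HIBI pup 5. The exact permutation test gave p = 0.0571. These counts are too few for the filter, and no fold is given.

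In striatum/thalamus 0 of 5 tested members were called, against 2.75% of 436 miRNAs. miR-137-3p had 31.1, 22.2, 8.59 and 20.3 CPM in sham pups 2, 3, 6 and 8 and 24.9, 45.4, 64.1 and 24.1 CPM in HIBI pups 1, 4, 5 and 7. HIBI pups 4 and 5 stood above the sham pups, and the rest overlapped. The log2 difference was 0.86 (SE 0.454, edgeR adjusted p = 0.980) and the exact permutation p was 0.143. It was called without sham pup 2 (1.13) and with no filter on low counts (0.86). In the same libraries, miRNAs of choroid plexus and ciliated cells summed to 2042, 2785, 2605 and 2150 CPM in sham pups. In HIBI pups they summed to 1992, 4050, 5446 and 2555 CPM, with pups 4 and 5 again above the sham pups. No other marker sum set both of these pups above all sham pups. The part of these markers in the miR-137-3p difference was not tested. The remaining tested members had log2 differences between -0.29 and -0.00, miR-138-2-3p at -0.29 (SE 0.204) and miR-138-5p at -0.09 (SE 0.258). miR-153-3p had 0, 12, 2 and 1 reads in sham and 7, 0, 2 and 0 reads in HIBI pups, with no separation. For all 436 miRNAs edgeR gave 0 with an adjusted p under 0.05 (0%) and 14 with an unadjusted p under 0.05, DESeq2, limma-voom and the edgeR exact test gave 0, and the fit with no filter gave 3.

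In cortex 0 of 5 tested members were called, against 3.41% of 410 miRNAs. miR-137-3p was at 79.0 ± 18.8 CPM in sham and 74.4 ± 19.9 in HIBI pups (SD, n = 4), a log2 difference of -0.08 (SE 0.239, edgeR adjusted p = 0.989). For miR-218-5p the sham values of 344, 492, 638 and 398 CPM and the HIBI values of 401, 360, 333 and 425 CPM overlapped, and the log2 difference was -0.30 (SE 0.176, edgeR adjusted p = 0.914). miR-138-5p differed by -0.19 (SE 0.198), miR-138-1-3p by 0.30 (SE 0.345) and miR-138-2-3p by -0.04 (SE 0.210). miR-153-3p had 3 reads in HIBI pup 7 and 0 in the other 7 pups. By edgeR adjusted p under 0.05, 0.244% of 410 miRNAs passed, which is 1 miRNA and not a member. DESeq2 gave 4, the edgeR exact test 3, limma-voom 1 and the edgeR fit with no filter 9, and leaving out HIBI pup 1 or 5 or sham pup 2, 3 or 6 gave 0. Over the 18 exact permutation tests of 6 members in 3 regions, the smallest p was 0.0571.

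**Figure D3:**
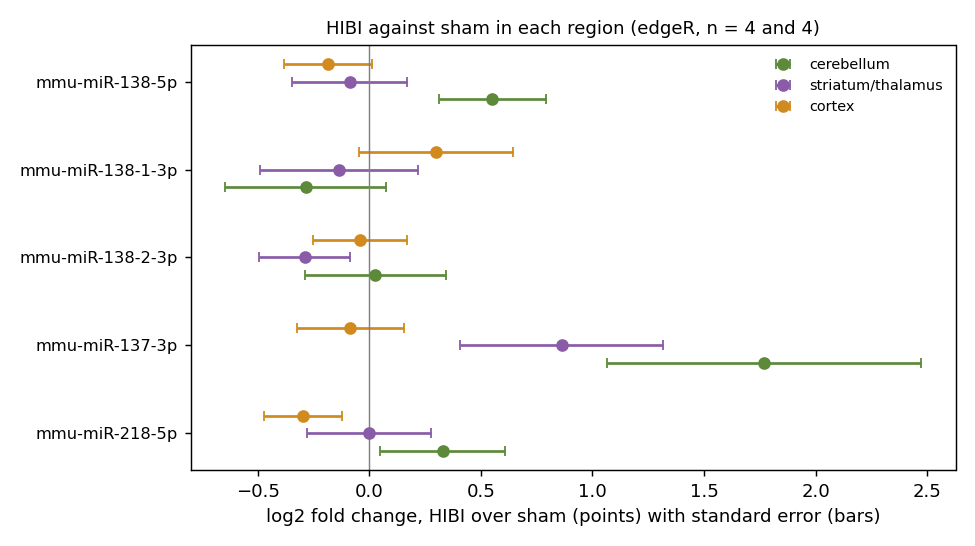
log2 fold change of HIBI over sham (horizontal axis, edgeR, with standard errors) for the 5 tested miRNAs in cerebellum, striatum/thalamus and cortex. miR-137-3p lies at 1.77 in cerebellum, 0.86 in striatum/thalamus and -0.08 in cortex. Scaling changes the direction of the near-zero values of miR-138-2-3p in cerebellum and of miR-218-5p in striatum/thalamus.

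Whether the injury response in forebrain differed from that in cerebellum was tested directly in 1 model of all 24 libraries. The main model had no term for the pup. For miR-137-3p the forebrain effect was below the cerebellar effect by a log2 difference of -1.32 (SE 0.662, edgeR adjusted p = 0.312). Without sham pup 6 this was -2.73 (edgeR adjusted p = 0.0572). For miR-138-5p the difference was -0.62 (SE 0.283, edgeR adjusted p = 0.277). miR-218-5p gave -0.42 (SE 0.328), miR-138-2-3p -0.10 (SE 0.287) and miR-138-1-3p 0.43 (SE 0.433). With the pup as a block miR-137-3p gave -1.46 and miR-138-5p -0.63 (edgeR adjusted p = 0.213 and 0.2285). edgeR called 0 of 435 miRNAs at an adjusted p under 0.05 (0%), with 70 at an unadjusted p under 0.05 and a smallest adjusted p of 0.151, and the model with the pup as a block called 0 as well, with 90.

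The miRNAs most like each member were sought by Pearson correlation of log2(CPM + 1) over 24 libraries, among 435 miRNAs averaging above 10 CPM. The 24 points share pups, regions and scaling, and r is a description. miR-137-3p was most like miR-708-3p (r = 0.884), miR-29a-3p (0.883) and miR-434-5p (0.870). miR-708-3p rose from 58.0 ± 24.03 CPM in sham cerebellum to 129 ± 15.0 in striatum/thalamus and 248 ± 37.5 in cortex (SD, n = 4). miR-138-5p was most like miR-300-3p (r = 0.824), miR-434-5p (0.814) and miR-29a-3p (0.801). miR-138-2-3p was most like miR-543-3p (r = 0.888), miR-434-3p (0.866) and miR-485-3p (0.855), the last at 794 ± 69.3, 2579 ± 479 and 1754 ± 76.4 CPM in sham cerebellum, striatum/thalamus and cortex. miR-218-5p was most like miR-21a-5p (r = 0.900), miR-9-5p (0.898) and miR-27b-3p (0.884), which were likewise lowest in striatum/thalamus. miR-138-1-3p was most like miR-124-3p (r = 0.682), miR-125b-5p (0.665) and miR-664-3p (0.662).

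Once each group's mean was removed, these correlations shrank, to between 0.181 and 0.748. The highest was that of miR-218-5p with miR-9-5p. Between members, r over the 24 libraries was 0.712 for miR-138-5p with miR-137-3p and 0.0857 for miR-138-5p with miR-138-2-3p. Those arms come from 1 hairpin in part, and r was -0.0773 after group means were removed.

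A further list held 16 miRNAs known from synapses, of which 14 were tested. In sham striatum/thalamus against cerebellum 8 of the 14 were called higher and 3 lower, where 62.6% of all 423 miRNAs were called, with a median log2 difference of 0.73 beside -0.03 over the 423. In cortex against cerebellum 8 were higher and 3 lower (60.5% of 423), with medians of 0.71 and -0.13, and in cortex against striatum/thalamus 3 were higher and 4 lower (36.6%), with medians of 0.02 and -0.06. miR-132-3p, which is induced by neuronal activity, exceeded its cerebellar level by 1.29 in cortex (SE 0.188, edgeR adjusted p = 3.98e-05), the direction of miR-138-5p. miR-485-5p, which limits presynaptic vesicle protein, peaked in striatum/thalamus like miR-138-2-3p, 1.89 on the log2 scale above cerebellum (SE 0.230, edgeR adjusted p = 6.33e-06). miR-134-5p and miR-329-3p, both found in dendrites, were also higher there than in cerebellum, by 1.44 and 1.76. miR-181a-5p had the low striatum/thalamus of miR-218-5p, with a log2 difference of -1.62 from cerebellum (SE 0.200, edgeR adjusted p = 6.36e-06). By mean over all 24 libraries the most abundant of the list were miR-125b-5p, at 151760 CPM, and miR-9-5p, at 64608 CPM. That order differed by region, and in striatum/thalamus of sham pups miR-125a-5p had 75632 CPM and miR-9-5p 40395.

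The other calls of the list in sham pups had edgeR adjusted p of at most 0.0169. Striatum/thalamus exceeded cerebellum for miR-125b-5p (0.99), miR-132-3p (0.83), miR-212-3p (0.95), miR-381-3p (0.62) and miR-495-3p (0.90), and was lower for miR-34a-5p (-1.34) and miR-9-5p (-0.97). Cortex exceeded cerebellum for miR-125b-5p (0.68), miR-128-3p (1.39), miR-212-3p (1.34), miR-329-3p (0.73), miR-381-3p (1.06), miR-485-5p (0.76) and miR-495-3p (1.02), and was lower for miR-125a-5p (-0.84), miR-181a-5p (-0.61) and miR-34a-5p (-1.42). Cortex exceeded striatum/thalamus for miR-128-3p (1.47), miR-181a-5p (1.01) and miR-9-5p (0.75), and was lower for miR-125a-5p (-1.03), miR-134-5p (-0.90), miR-329-3p (-1.03) and miR-485-5p (-1.12).

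Some of these calls were lost under alternatives. For striatum/thalamus against cerebellum these were miR-212-3p (without pup 2 or 3), miR-34a-5p (8), miR-381-3p (2 or 8, upper quartile scaling, no filter), miR-495-3p (3) and miR-9-5p (8). For cortex they were miR-329-3p (2 or 3) and miR-34a-5p (3) against cerebellum, and miR-9-5p (2 or 8) and miR-134-5p (no filter) against striatum/thalamus. The call of miR-181a-5p between cortex and cerebellum held under 3 of 11 alternatives, and was lost with DESeq2 or its size factors, library size, a 1 CPM filter, no filter, and without pup 2, 6 or 8.

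In HIBI pups 7 of the 14 were called higher and 3 lower in striatum/thalamus against cerebellum (49.1% of 446 miRNAs called), 5 higher and 1 lower in cortex against cerebellum (29.6%), and 2 higher and 4 lower in cortex against striatum/thalamus (28%). Each of these was called in sham pups in the same direction except miR-125a-5p, with striatum/thalamus above cerebellum by 0.95 in HIBI pups (edgeR adjusted p = 0.00682). That call was lost without HIBI pup 4 or 7.

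Other HIBI calls of the list were lost as well. For striatum/thalamus against cerebellum these were miR-134-5p (without HIBI pup 7) and miR-212-3p (4, 5 or 7, no filter). For cortex against cerebellum they were miR-125b-5p (4 or 7) and miR-485-5p (1, 4 or 7, library size, a 1 CPM filter, no filter), the latter held under 5 of 11 alternatives. For cortex against striatum/thalamus they were miR-125a-5p (4 or 7, no filter), miR-134-5p (1 or 7, no filter), miR-181a-5p (7) and miR-485-5p (7).

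By injury 1 of the 14 was called, miR-125a-5p in cerebellum, where the rule called 7.83% of 434 miRNAs. It was at 69263 ± 19534 CPM in sham and 41382 ± 6067 in HIBI pups (SD, n = 4), a log2 difference of -0.72 (SE 0.233, edgeR adjusted p = 0.432). The call was lost without sham pup 2 (-0.57) and with scaling by library totals alone (-0.54). In striatum/thalamus and in cortex the list had 0 calls by edgeR, against 2.75% of 436 and 3.41% of 410 miRNAs, with 1 and 0 miRNAs at an unadjusted p under 0.05.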

How the data were processed

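The deposited read counts, one column per library, were made by the authors with Bowtie2 alignment to mature mouse miRNAs of miRBase. Versions, the miRBase release and the handling of reads that match several miRNAs are not given in the sources used here. The authors' own fold change, average level, p and FDR columns were not used. The 20 entries not named for mouse (84 counts, 0.000156%) were left out. The members and lists were chosen with earlier results of these data known.

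miRNAs averaging above 10 CPM were fitted in R 4.3.3 by edgeR 4.0.16 (TMM, quasi-likelihood test), with Benjamini-Hochberg adjustment over all miRNAs tested. Regional calls needed a fold above 1.5 and an adjusted p under 0.05. The main fits that joined regions had no term for the pup, which the replicate block added. Single members were tested by two-sided exact permutation of 4 against 4 pups on log2(CPM + 1). Named beside the members are their opposite arms, miRNAs sharing a seed, the 3 miRNAs most correlated with each member, and the called and the 2 most abundant miRNAs of the list of other synaptic miRNAs. Alternatives used other scaling, filters, DESeq2 1.42.0, limma 3.58.1, a pseudocount of 0.5, a replicate block and each pup left out. Sequences matched 6 of 6 members. Limits of a count of 0 cover counting error only. Each SE was computed from the edgeR log2 difference and the F statistic of its quasi-likelihood test.

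For pairing, deviations from group means were correlated between regions of the same pup over 435 miRNAs. The median r was 0.16 for cerebellum with striatum/thalamus (above 0.1 in 5 of 8 pups), 0.27 for cerebellum with cortex (7 of 8) and 0.19 for striatum/thalamus with cortex (5 of 8). Between the 36 pairs of libraries within a group, chi-square per degree of freedom was 26.5 to 483, far above counting error.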

Additional observations from a re-analysis of the deposited data

Results flagged for a closer look

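In 47 groups of 4 libraries searched, 4 had a highest value far from the others, and chance gives about 1 in 20 groups of untied values. miR-153-3p reached 0.784 CPM in cerebellum of sham pup 8 with 0 reads in the other 3 sham pups. It reached 1.13 CPM in cortex of HIBI pup 7 with 0 reads in the other 3 HIBI pups. Beside 3 libraries at 0 any read stands apart, so that rate does not apply to these 2 groups, and 0.784 CPM is below the 1.30 CPM or more that 0 reads allow in each of the other 3 sham pups. miR-218-1-3p, the passenger arm of the Mir218-1 hairpin, reached 9.61 CPM in striatum/thalamus of sham pup 3 and 7.39 CPM in cortex of HIBI pup 5.

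The injury effect on miR-138-5p differed between regions at an unadjusted p under 0.05, forebrain minus cerebellum -0.62 on the log2 scale, and not after adjustment in edgeR (adjusted p = 0.277). Without sham pup 2 or 3 or HIBI pup 4, 5 or 7 it missed the unadjusted threshold too. Among 435 miRNAs 70 passed that unadjusted threshold.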

How the results depend on the processing

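Of 957 alternative values of regional log2 fold changes, 871 kept direction and side of the threshold, 66 lost the call, 10 gained one and 10 reversed. Of 352 for HIBI against sham, 299 kept both, 12 lost the call, 10 gained one and 31 reversed. The cause of the reversals was not tested. Counts of reads limit miR-153-3p most, with 44 in all libraries.

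For miR-138-2-3p in cerebellum, HIBI against sham turned to -0.0981 with upper quartile scaling, -0.0202 with no filter and -0.0700 with limma-voom. For miR-218-5p in striatum/thalamus it turned to 0.0335 with DESeq2 size factors, 0.0774 with library size, 0.0111 with upper quartile, 0.0176 with a 1 CPM filter and 0.0339 with DESeq2. With no filter, miR-138-2-3p in cortex turned to 0.000429, and miR-138-1-3p between sham cortex and striatum/thalamus to 0.0224. miR-137-5p between HIBI cortex and striatum/thalamus turned to -0.0222 with DESeq2 size factors, -0.0775 with library size, -0.0101 with a 1 CPM filter and -0.0212 with DESeq2. With library size, mean log2 differences of the exact tests turned to -0.00221 for miR-138-5p in striatum/thalamus and 0.105 for miR-138-2-3p in cerebellum.

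Calls for HIBI against sham rose in number with weaker filters, where more miRNAs were tested. In cerebellum 34 of 434 miRNAs were called above 10 CPM, 61 of 731 above 1 CPM and 106 of 1315 with no filter. In striatum/thalamus these were 12 of 436, 19 of 740 and 54 of 1265, and in cortex 14 of 410, 41 of 698 and 86 of 1290. DESeq2 called 19 of 436 in striatum/thalamus. Members called were 2 in cerebellum with library size (51 of 434 miRNAs) and 1 in striatum/thalamus with no filter (54 of 1265 miRNAs). Between HIBI cortex and cerebellum 2 members were called with DESeq2 size factors, 2 with upper quartile and 3 with DESeq2 (126, 130 and 143 of 446 miRNAs), between HIBI cortex and striatum/thalamus 1 above 1 CPM (96 of 737), and between HIBI striatum/thalamus and cerebellum 3 with DESeq2 (225 of 446). The replicate block (pairing by pup) raised the members called in HIBI pups to 3 for striatum/thalamus against cerebellum and 3 for cortex against striatum/thalamus, both by miR-137-3p, while all miRNAs called rose from 219 to 244 and from 125 to 167 of 446, and changed no other call of a member.

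Leaving out each pup in turn, members called for HIBI against sham were 0 to 2 in cerebellum (16 to 80 miRNAs) and 0 to 1 in striatum/thalamus (7 to 38 miRNAs). In HIBI pups they were 1 to 2 for cortex against cerebellum (71 to 131 miRNAs), 0 to 3 for cortex against striatum/thalamus (23 to 117) and 1 to 3 for striatum/thalamus against cerebellum (145 to 219). In sham pups they were 2 to 3 for cortex against striatum/thalamus (97 to 155). HIBI against sham ranged from -0.15 to 0.24 for miR-138-2-3p in cerebellum and -0.13 to 0.10 in cortex, -0.20 to 0.18 for miR-138-5p, -0.29 to 0.21 for miR-218-5p, -0.329 to 0.0156 for miR-138-1-3p and -0.0863 to 0.459 for miR-137-5p in striatum/thalamus, and -0.269 to 0.0915 for miR-137-3p and -0.166 to 0.0672 for miR-137-5p in cortex. The forebrain minus cerebellum effect of miR-138-2-3p ranged from -0.30 to 0.10. Cortex minus cerebellum in sham pups ranged from -0.0392 to 0.499 for miR-138-1-3p and -0.0074 to 0.39 for miR-218-5p. Cortex minus striatum/thalamus in HIBI pups ranged from -0.11 to 0.34 for miR-137-5p. The log2 ratio of miR-218-5p to miR-218-1-3p, added after the data were seen, ranged from -0.55 to 0.16 for cortex minus cerebellum. That ratio sets reads from both Mir218 hairpins against the opposite arm of Mir218-1 alone.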

Other observations

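Summed levels of marker miRNAs varied with region in sham pups (SD, n = 4). Oligodendrocyte miRNAs (2 listed, miR-219a-2-3p the most abundant) were at 6257 ± 768 CPM in cerebellum, 2990 ± 988 in striatum/thalamus and 1521 ± 375 in cortex. Muscle miRNAs (3, miR-206-3p the most abundant) were at 519 ± 65.6 CPM in cerebellum, 95.5 ± 42.4 in striatum/thalamus and 46.2 ± 14.8 in cortex. Neuronal miRNAs were at 150989 ± 29362, 114007 ± 29646 and 204158 ± 13126 CPM in the same order of regions. Endothelial miRNAs were at 2950 ± 927, 1881 ± 849 and 3206 ± 433 CPM. Both sums were lowest in striatum/thalamus, as was miR-218-5p. Of the neuronal miRNAs, miR-9-5p and miR-128-3p were lowest there, and miR-124-3p was not. In the same order of regions miR-124-3p was at 34537 ± 8487, 42332 ± 5516 and 39684 ± 2982 CPM. Choroid plexus and ciliated cell miRNAs were at 6441 ± 4000, 2396 ± 357 and 2434 ± 224 CPM. Erythrocyte miRNAs were at 1124 ± 270, 781 ± 83.4 and 592 ± 103 CPM, and myeloid at 563 ± 145, 642 ± 253 and 666 ± 64.4 CPM. In cerebellum of sham and HIBI pups, myeloid miRNAs (5, miR-146a-5p the most abundant) were at 563 ± 145 and 748 ± 192 CPM, and endothelial miRNAs (2, miR-126a-3p the most abundant) at 2950 ± 927 and 3690 ± 1073 CPM. The part of these sums in the differences of the members was not tested.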
